A study of Bos taurus with 2 samples.

Results

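The genes described here encode the enzymes that remove superoxide and peroxides and that make and recycle glutathione: the superoxide dismutases SOD1, SOD2 and SOD3, catalase (CAT), the glutathione peroxidases GPX1, GPX3 and GPX4, the glutamate-cysteine ligase subunits GCLC and GCLM, and glutathione reductase (GSR). They were taken as 10 genes of 16888 named genes on the array. Every probe whose gene name on the array, or whose RefSeq accession, led to one of these symbols was used, which gave 25 probes: 24 were matched by accession and 1, a GPX1 probe designed on another transcript record, by the name on the array. Total RNA from whole blood of Holstein cattle (Bos taurus) was labelled with the dye Cy3 and hybridised to a bovine oligonucleotide array. The groups were low feed efficiency (1 array), the specimen of high residual feed intake, which is feed eaten beyond what size and production call for, and high feed efficiency (1 array). The labels give no age, sex, diet or number of animals behind either blood specimen, so each group stands for 1 specimen, and no difference given here has a replicate check, a test or a p-value.

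Superoxide dismutases turn superoxide, a by-product of respiration and of the oxidative burst of phagocytes, into hydrogen peroxide. Catalase breaks hydrogen peroxide down to water and oxygen, and glutathione peroxidases, which are selenoproteins in GPX1, GPX3 and GPX4, reduce hydrogen peroxide and lipid peroxides at the expense of glutathione. Glutathione is made from its amino acids in a pathway whose first step is glutamate-cysteine ligase, and oxidised glutathione is restored by glutathione reductase with electrons from NADPH. Red cells carry high amounts of several of these proteins, and neutrophils and monocytes produce superoxide to kill microbes, so whole blood holds several cell types that use the system.

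Values are Cy3 intensities, the pixel median of a spot minus its background, in arbitrary units. The threshold for a probe to be above background was 10.9 on both arrays, which is 3 robust SDs over the median of the 153 negative control spots. A difference is the scaled log2 intensity of the low-efficiency specimen minus that of the high-efficiency one, after each array was divided by its 75th percentile over probes, which was 98 in the low-efficiency and 81 in the high-efficiency specimen. An intensity that was equal on both arrays therefore gave a negative difference. The median difference over the 10339 genes measured on both arrays was -0.039, with 5th and 95th percentiles of -0.51 and 0.46. Where a probe was spotted repeatedly, its spots differed with an SD of 0.10 if bright and 0.24 if dim, above and below the median signal of all genes. This SD covers the error of spots only, and differences between animals, extractions or labellings were not measured. Levels of different probes are not compared as amounts of RNA, since probes bind their targets with different strength. Brightness only chose the probe that stands for a gene and the markers to name, and it weights the summed marker signals given further on, in which the brightest probes count most.

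Whole blood markers were present on both arrays. The globin gene HBA read 26648 in the low-efficiency and 20058 in the high-efficiency specimen, and the neutrophil calgranulin gene S100A12 read 48851 against 34561. Of 82 marker genes of 7 blood cell types, 65 were above background on both arrays.

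Of the 25 probes, 18 were above background on both arrays, 3 on 1 array and 4 on neither, and none had saturated pixels. The 18 probes measured 7 of the 10 genes: SOD1, SOD2, CAT, GPX1, GPX4, GCLM and GSR. For SOD3, GPX3 and GCLC no probe was above background on both arrays. Before scaling, 14 of the 18 probes were brighter on the low feed efficiency array, with ratios of low over high between 0.892 and 2.08 over the 18. That array was brighter as a whole, with a 75th percentile of 98 against 81. The count is therefore not read as a trait of these genes. After scaling, 8 of the 18 probes had a positive and 10 a negative difference.

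**Figure D1:**
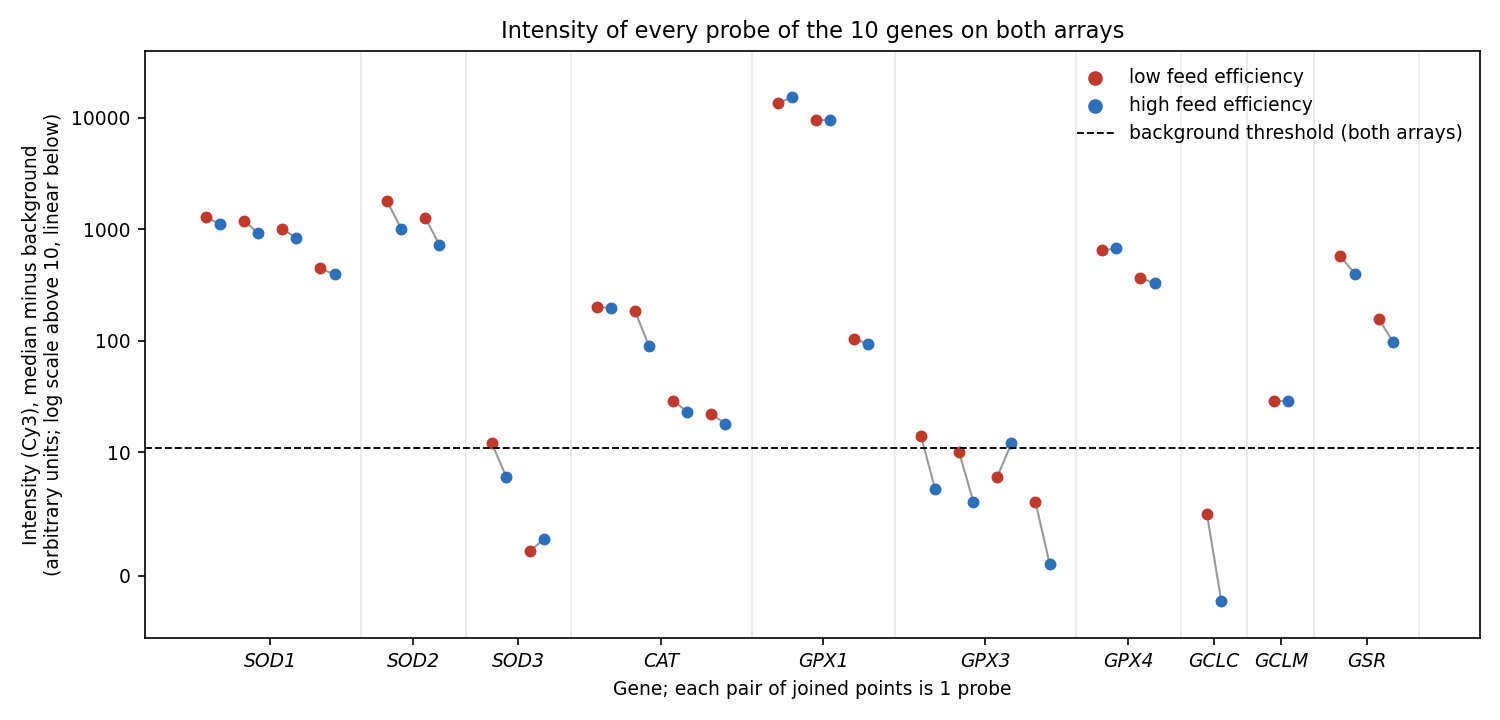
Cy3 intensity (median minus background, arbitrary units, log scale above 10 and linear below) of all 25 probes of the 10 genes, in low (red) and high (blue) feed efficiency, with the joined points of a pair being 1 probe. The probes of SOD3, GPX3 and GCLC lie around or below the background threshold of 10.9 (dashed), and the steepest pairs above it are those of SOD2, a CAT probe and GSR.

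Among the superoxide dismutases, the mitochondrial enzyme SOD2 was higher in low feed efficiency at both of its probes, while the cytosolic enzyme SOD1 was near the median of all genes at all of its probes. SOD2 is the manganese enzyme of the mitochondrial matrix and is known to be induced by inflammatory cytokines. Its brighter probe read 1798 in the low-efficiency and 1006 in the high-efficiency specimen, a difference of 0.56 (1.48-fold). Its other probe read 1275 in the low-efficiency and 723 in the high-efficiency specimen, a difference of 0.54 (1.46-fold). The probes thus lay 0.019 apart, within the spot SD of 0.10, and all 4 SOD2 spots were flagged good by the scanner software. Relative to the median of all genes, SOD2 had 0.60 and ranked 305th from the top of 10339 genes, so that 2.95% of genes had a difference at least as high. Of 4995 genes with at least 2 probes above background, 29 (0.581%) had both of their brightest probes at or above the lower SOD2 value. These positions describe the pair of arrays and are no test.

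SOD1, the copper and zinc enzyme of the cytosol, had 4 probes, all flagged good on both arrays. Its brightest probe read 1282 in the low-efficiency and 1116 in the high-efficiency specimen, a difference of -0.075. The next probes read 1188 against 927 (0.083), 1010 against 836 (-0.0021) and 445 against 394 (-0.099). The 4 differences spanned 0.18 and lay on both sides of the median of all genes, with none farther from it than 0.12. A probe outside the rule that the array describes as Cu-Zn superoxide dismutase, but to which it gives no gene name, read 1321 in the low-efficiency and 1166 in the high-efficiency specimen (-0.095), inside the range of the SOD1 probes. SOD1 thus differed by less than 2 spot SDs from the median of all genes, and its sign depended on the processing: it was negative under 9 and positive under 5 of 14 alternatives.

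SOD3 is the secreted copper and zinc enzyme of the extracellular space. One of its probes read 12 in the low-efficiency and 8 in the high-efficiency specimen, just above the threshold in low and not well above background in high feed efficiency. Its other probe read 2 in the low-efficiency and 3 in the high-efficiency specimen, below the threshold on both. After scaling, the lowest signal counted as above background on the high feed efficiency array was brighter than the SOD3 value in low, so no fold is given.

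Catalase had 4 probes above background on both arrays, and they disagreed. The brightest probe read 202 in the low-efficiency and 196 in the high-efficiency specimen, a difference of -0.23. The next read 185 in the low-efficiency and 89 in the high-efficiency specimen, a difference of 0.78 (1.72-fold), the largest of all 18 probes. The dimmer ones read 29 against 23 (0.060) and 22 against 18 (0.015), near the median of all genes. The probes of CAT therefore spanned 1.01 on the log2 scale. Among the 4995 genes with at least 2 probes above background, the median gap between the brightest pair was 0.15 and the 90th percentile was 0.53. Of these genes, 1.54% had a gap at least as wide as the CAT range. That range, over 4 probes, is also the gap between the 2 brightest CAT probes.

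The CAT probes at both ends of that range each had 1 spot of uneven brightness that was not flagged good. In low feed efficiency the pixels of the brightest CAT probe had a coefficient of variation of 55.3%, against 20.4% in high feed efficiency. At the next probe it was 21.6% in the low-efficiency and 70.5% in the high-efficiency specimen. The dim CAT probes were flagged good on both arrays. With only spots flagged good, CAT had 0.060, and as the mean over its probes 0.16, in place of -0.23. The direction of catalase between the specimens is therefore not settled by these arrays.

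**Figure D2:**
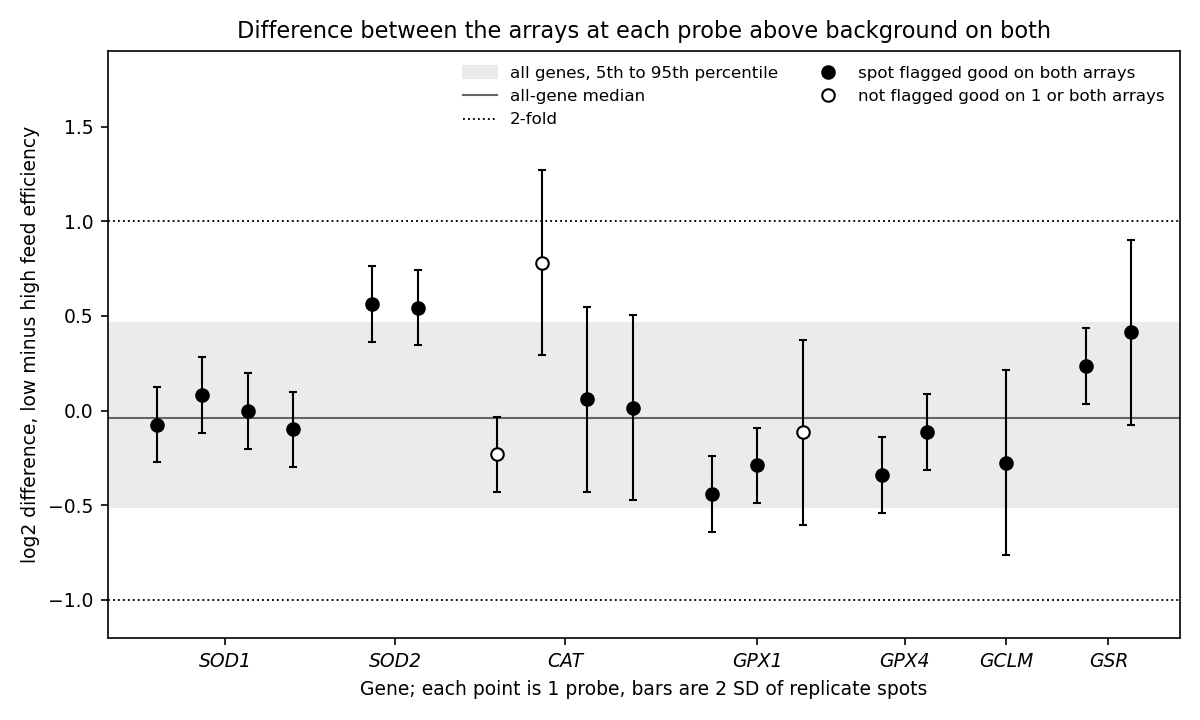
Log2 difference, low minus high feed efficiency, at each of the 18 probes above background on both arrays, by gene, with bars of 2 SD of replicate spots (0.10 for bright, 0.24 for dim probes). The 2 SOD2 probes sit together near 0.55 and above the grey range of all genes (5th to 95th percentile), the 4 SOD1 probes sit on the all-gene median, and the CAT probes that are far apart are those with a spot not flagged good (open).

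The intracellular glutathione peroxidases GPX1 and GPX4 were lower in low feed efficiency at every probe, by less than 1.5-fold, but under spike-in scaling only the brightest GPX1 probe was. GPX1, a cytosolic glutathione peroxidase of red cells, read 13582 in the low-efficiency and 15235 in the high-efficiency specimen at its brightest probe. The difference was -0.44 (1.36-fold lower). Its next probe read 9500 in the low-efficiency and 9595 in the high-efficiency specimen (-0.29). The probe matched by array name read 104 against 93 (-0.11), on spots not flagged good on either array. All 3 lay below the median of all genes, and the values relative to it were -0.40, -0.25 and -0.074. The last of these is a size within the spot SD of 0.24 for dim probes. A difference as low as that of the brightest probe was reached by 7.67% of genes.

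The brightest GPX1 spot was uneven in low feed efficiency, with a pixel coefficient of variation of 47.8%, against 10.8% in high feed efficiency. With the pixel mean in place of the median that probe had -0.73, and with normexp background correction of the pixel mean -0.63, past 1.5-fold. The second GPX1 probe, with coefficients of 18.5% and 19.4%, had -0.28 and -0.18 under the same alternatives. Under spike-in scaling the 3 GPX1 probes had -0.082, 0.069 and 0.24.

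GPX4, which reduces peroxides of membrane lipids, read 645 in the low-efficiency and 675 in the high-efficiency specimen at its brighter probe, a difference of -0.34 (1.27-fold lower). Its other probe read 367 in the low-efficiency and 328 in the high-efficiency specimen, a difference of -0.11. Both probes were flagged good on both arrays. Relative to the median of all genes the first had -0.30 and the second -0.074, a size within the spot SD of 0.10. GPX4 stayed below the median of all genes under all 14 alternatives, but its unadjusted difference was 0.018 under spike-in scaling. Several of the alternatives keep the same probe value or shift all genes alike, so they could hardly move GPX4 relative to that median.

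GPX3 is the secreted peroxidase of plasma, made mainly in the kidney. Its 4 probes read 14, 10, 8 and 6 in low and 7, 6, 12 and 1 in high feed efficiency, in the same probe order. One probe was above the threshold in low feed efficiency only and another in high feed efficiency only. With the other array at its lowest signal above background, the first was at least 1.05-fold higher and the second at least 1.32-fold lower in the low-efficiency specimen, so the probes ran in opposite directions at signals next to the threshold.

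The ligase that starts glutathione synthesis had a dim signal above background on both arrays for GCLM, but not for GCLC. GCLM, its modifier subunit, had 1 probe, which read 29 in the low-efficiency and 29 in the high-efficiency specimen. Scaling turned this equal intensity into a difference of -0.27, or -0.24 relative to the median of all genes, a size within the SD of 0.24 for dim probes, and under spike-in scaling it was 0.084. GCLC, the catalytic subunit, read 5 in the low-efficiency and -2 in the high-efficiency specimen at its probe, both below the threshold. A probe outside the rule that the array describes as this subunit, with no gene name, read 13 in the low-efficiency and 9 in the high-efficiency specimen. No fold is given for GCLC.

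Glutathione reductase, the NADPH enzyme that restores reduced glutathione, was higher in low feed efficiency at both probes. Its brighter probe read 570 in the low-efficiency and 400 in the high-efficiency specimen, a difference of 0.24 (1.18-fold). Its other probe read 158 in the low-efficiency and 98 in the high-efficiency specimen, a difference of 0.41 (1.33-fold). All GSR spots were flagged good, and relative to the median of all genes the probes had 0.28 and 0.45, the second within 2 SDs of dim probes. A difference as high as that of the brighter probe was reached by 16.8% of genes.

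Set against all genes, none of the 7 measured members was 2-fold apart, where 0.938% of all genes were, and none was 1.5-fold apart, where 2.68% were higher and 3.14% lower. These shares are too small for a count of 0 among 7 genes to say anything about the members. SOD2, at 0.56, lay just under the 1.5-fold line of 0.58 on the log2 scale and passed it under 7 of the 14 alternatives. Of 18 probes 1, of CAT, was at least 1.5-fold higher, against 3.18% of all probes. Relative to the median of all genes, 2 members (SOD2 and GSR) were above and 5 (SOD1, CAT, GPX1, GPX4 and GCLM) below, SOD1 and CAT with either sign across the alternatives, while all genes split evenly about their median by construction. Before the median was taken off, the 5 also had a difference below 0, as 55.6% of all genes did. The median of the 7 was -0.19 relative to all genes, the value of CAT, whose probes disagreed, and with the mean over probes it was 0.012. SOD2, GSR, GPX1 and GPX4 lay more than 2 spot SDs from the median of all genes by their brightest probe.

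**Figure D3:**
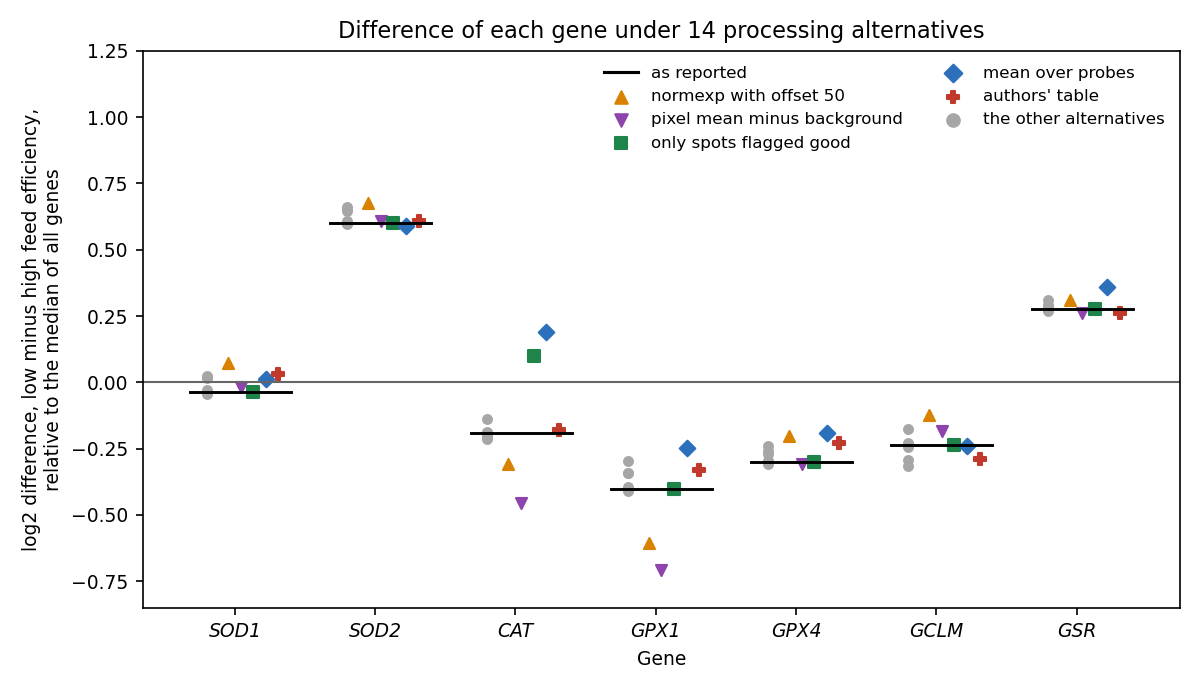
Log2 difference, low minus high feed efficiency, relative to the median of all genes for the 7 measured genes, as reported (black line) and under each of 14 alternatives (symbols). SOD2 stays between 0.59 and 0.68 and GSR between 0.26 and 0.36, GPX1 and GPX4 stay below 0, and CAT lies on both sides of 0. Several alternatives could hardly move these values, since they keep the same probe or shift all genes alike.

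The choice of scale decided the sign of several members. The 7 Agilent spike-in controls above background, with 32 spots each, were nearly as bright on the low-efficiency array as on the other, for example 444 against 478. After scaling on the 75th percentile, 6 of them had differences between -0.41 and -0.35 with spot SDs of 0.072 to 0.21, and the seventh had -0.59 with an SD of 1.15. Dividing by the spike-ins instead moved the median of all genes up by 0.36. On that scale SOD2 had 0.92, GSR 0.59, SOD1 0.28, CAT 0.13, GCLM 0.084, GPX4 0.018 and GPX1 -0.082. GPX1 was thus the only measured member still lower in low feed efficiency by its brightest probe under spike-in scaling. The order of the members by difference, from SOD2 at the top to GPX1 at the bottom, was the same on both scales, since dividing an array by a constant adds the same amount to each.

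The rest of the pathway was read from 8 lists of related genes, of which 67 of 94 genes were above background on both arrays. None was 2-fold apart, where 0.938% of all genes were, and 1, MAFF, was 1.5-fold lower, where 3.14% were, so these counts are near the share of all genes and say nothing about the lists. MAFF, a small MAF protein that pairs with the stress factor NRF2, read 20 in the low-efficiency and 29 in the high-efficiency specimen, a difference of -0.81 at a dim probe. Against the median of all genes 35 lay above and 32 below. Under spike-in scaling 0.36 is added to each difference given for these lists, so that MAFF is less than 1.5-fold lower and genes with a small negative difference turn positive. On that scale many list genes pass 1.5-fold higher, among them GSTT1 with 0.54, PSTK with 0.46, SLC30A1 with 0.44 and NNT with 0.43 before the shift. They were not counted, so they are not set against the share of all genes. Over all genes, 1811 of 10339 were at least 1.5-fold higher on that scale.

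Of the other glutathione peroxidases only GPX7, an enzyme of the endoplasmic reticulum, was measured, at 254 in the low-efficiency and 241 in the high-efficiency specimen (-0.20). Of 10 measured genes of glutathione supply and breakdown, 3 were above and 7 below the median of all genes, with a list median of -0.14 relative to it. They ran from the glutathione-degrading enzyme gene CHAC1 with -0.37 (15 against 16) to ABCC1, an exporter of glutathione conjugates, with 0.14 (183 against 137). Of 7 genes of NADPH supply, which feeds glutathione reductase, 2 were above and 5 below, with a median of -0.089. NNT, the mitochondrial transhydrogenase gene, had 0.43 at 57 against 35 and -0.082 at its other probe, and the pentose phosphate enzyme gene PGLS had -0.27 at 345 on both arrays. Of 8 genes of selenoprotein synthesis, 5 were above and 3 below (median 0.14), from the selenocysteine elongation factor gene EEFSEC with -0.35 (411 against 433) to PSTK, a kinase that prepares selenocysteine tRNA, with 0.46 (25 against 15).

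Glutathione transferases and glutaredoxins, which use glutathione to detoxify compounds and reduce proteins, had 11 of 15 measured genes above the median of all genes and a list median of 0.097 relative to it. The highest was GSTT1 with 0.54 at 132 in the low-efficiency and 75 in the high-efficiency specimen, its 3 probes running from 0.13 to 0.54. The lowest was GSTZ1 with -0.29 (103 against 104). Of 12 measured genes of NRF2 control and targets, 8 were above and 4 below (median 0.100). NFE2L2, which encodes NRF2 itself, had 0.33 at 164 against 108, but its 4 probes ran from -0.18 to 0.33.

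The list taken for metal supply to superoxide dismutases, mostly genes that handle copper, zinc or manganese, had 5 of 8 above and 3 below the median of all genes. The list median was 0.22 relative to it. CCS, the copper chaperone that loads SOD1, was chosen after its values were seen: it read 2260 in the low-efficiency and 1535 in the high-efficiency specimen, a difference of 0.28, with 0.38 at its other probe. SOD1 itself did not show that difference at any of its 4 probes. By the naming rule, the zinc exporter gene SLC30A1 was highest with 0.44 (41 against 25, other probe -0.19) and SLC25A39, a mitochondrial carrier, lowest with -0.32 (2125 against 2194, with 5 probes up to 0.061).

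The phagocyte NADPH oxidase, which makes the superoxide that dismutases remove, had all 6 subunit genes measured, with 1 above and 5 below the median of all genes and a median of -0.11 relative to it. CYBB, the catalytic subunit and the 1 gene above, had 0.087 (753 against 586) but -0.080 at its other probe, and the small GTPase gene RAC2 had -0.38 (6752 against 7244).

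**Figure D4:**
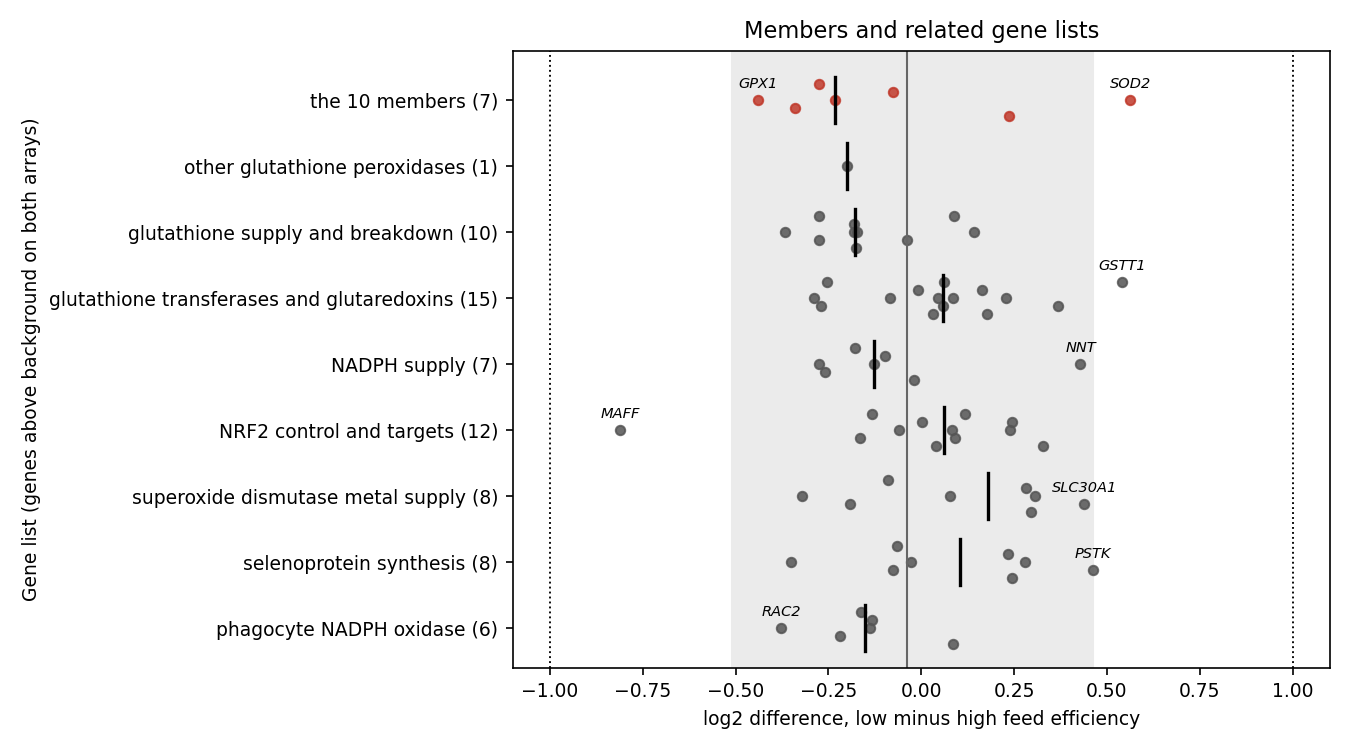
Log2 difference, low minus high feed efficiency, of the measured members (red) and of the genes in 8 related lists (grey points), with the list median as a black bar, the all-gene median as a line, the range from the 5th to the 95th percentile of all genes in grey and 2-fold as dotted lines. All list genes lie inside 2-fold, MAFF is the farthest below at -0.81, and SOD2 is the highest at 0.56 with GSTT1 at 0.54 next to it.

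Cell makeup was not measured, and in whole blood fewer cells of a type and less RNA per cell cannot be told apart. Neutrophil markers lay above the median of all genes for 10 of 13 measured genes, with a median of 0.15 relative to it, a summed scaled signal of 920 in the low-efficiency and 818 in the high-efficiency specimen, and a range of differences from -0.23 to 0.97. Natural killer markers lay below it for 6 of 6 (median -0.37, summed signal 202 against 263, range -0.65 to -0.18). T cell markers lay below it for 9 of 12 (median -0.11, 269 against 323, range -0.41 to 0.79). Monocyte markers were above it for 3 of 8 (median -0.12, 303 against 346, range -0.86 to 0.33). B cell markers were above it for 4 of 9 (-0.0089, 99.9 against 104, range -0.55 to 0.32). Platelet markers were above it for 3 of 7 (-0.016, 294 against 285, range -0.58 to 0.22). Erythroid markers were above for 5 of 10 (median 0.083, 531.6 against 466.5, range -1.42 to 0.33). Of them the globin genes HBG and HBA had 0.33 and 0.13, while ALAS2, the first enzyme of heme synthesis, was lowest at 112 against 248, and the band 3 gene SLC4A1 and the erythroid factor gene KLF1 had no probe above background on both arrays. ALAS2, SLC4A1 and KLF1 were chosen after their values were seen, and SLC4A1 and KLF1 give no difference between the specimens. The other measured erythroid markers ran both ways, from GATA1 with -0.59 to CA2 with 0.33. The 2 brightest markers of the other types were S100A8 with 0.100 for neutrophils, besides S100A12 with 0.22, FCN1 with -0.41 and LYZ with 0.32 for monocytes, and CD4 with -0.41 and CD247 with -0.17 for T cells, each by the brightest probe. They were TNFRSF13C with -0.048 and CD79A with 0.11 for B cells, CCL5 with -0.43 and GZMB with -0.18 for natural killer cells, and GNG11 with 0.22 and PF4 with -0.055 for platelets. Other probes of some of these genes had another sign or size: the range over probes was -0.050 to 0.32 for LYZ, -0.41 to 0.17 for CD4, -0.33 to 0.11 for CD79A, -0.048 to 0.011 for TNFRSF13C, -0.036 to 0.22 for GNG11 and -0.64 to -0.15 for GZMB. For FCN1 the range over probes was -0.41 to -0.13. The direction of these marker signals depends on the scale, since spike-in scaling adds 0.36 to each difference and leaves values relative to the median unchanged. Before scaling, the summed intensity was lower in low feed efficiency for natural killer markers only (19823 against 21301). For T cell markers it was 26316 against 26161, and for monocyte markers 29658 against 27998. The part of these marker shifts in the differences of SOD2, GSR, GPX1 and GPX4 was not tested.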

How the data were processed

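Cy3-labelled whole blood RNA was read on 2 arrays. Per the file headers, the deposited intensity values were exported by GenePix Pro 6.1.0.4 without normalization, and the background column was 25 on every spot. The deposited files also give the percent of saturated pixels, the count of pixels per spot and a flag score (100 good, 0 unflagged, -50 not found). Agilent Feature Extraction is the tool listed in the submitters' processing notes.

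Control spots and bright spots flagged not found (408 in low, 283 in high feed efficiency) were left out, which kept 43096 of 43653 distinct probes and all 25 member probes. Intensities were divided by each array's 75th percentile and taken to log2 (Python 3.11.15, pandas 2.3.3). Of the probes that passed the threshold on both arrays, the brightest stood for its gene. Probes were named through a RefSeq gene table of assembly ARS-UCD2.0. The scaling and the 2-fold count were tried on simulated data with changes larger than any member difference given here. The 1.5-fold count, the choice of probe and smaller differences were not tried. With 1 array per group there was no test; differences were counted at 2-fold and 1.5-fold. Members and lists were chosen with earlier results of these data known. In each list the members at least 2-fold apart, or else the highest and lowest, were named, and in marker lists the 2 brightest. The 14 alternatives include limma 3.58.1 normexp (offset 50), loess, quantile and spike-in scaling. The authors' deposited log2 table followed the scanner rank order only after a move of 1 row (rho 1.00 on both arrays, against 0.0766 in low and 0.0716 in high feed efficiency as deposited), and served as an alternative after it. The number of arrays limits the precision. Sequences are not reported here.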

Additional observations from a re-analysis of the deposited data

How the results depend on the processing

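No paired analysis was possible because each group has 1 array. The count of members at least 2-fold apart was 0 under all 14 alternatives. The count at least 1.5-fold apart, 0 as reported, was 2 with normexp, the pixel mean and spike-in scaling, and 1 without background subtraction, with quantile or loess normalization and in the authors' deposited table; SOD2 passed in all 7. The members' median relative to all genes, -0.19 as reported, was -0.036 with only spots flagged good and 0.012 as the mean over probes, and between -0.21 and -0.12 under the other alternatives. These counts and medians cover the 7 measured members under every alternative. With no filter on dim probes SOD3 and GPX3 also had differences, 0.31 and 0.73, at signals next to the threshold. They were left out, although GPX3 passed 1.5-fold there. SOD2 (0.55 to 0.92) and GSR (0.22 to 0.59) were positive and GPX1 (-0.73 to -0.082) negative under all 14. Alternatives that only rescale an array or only change which spots are kept mostly reuse the same probe values. The 14 are therefore not independent checks. GPX4 (-0.35 to 0.018) and GCLM (-0.32 to 0.084) turned positive under spike-in scaling only, and CAT (-0.48 to 0.16) under 3 alternatives. Over all genes, 38 higher and 59 lower at 2-fold became 214 and 20 with spike-in scaling, 7 and 17 with only good spots, 5 and 17 without background subtraction, 12 and 30 at 2 times the background threshold, and 831 and 906 with no filter on dim probes; the pixel mean gave 58 higher. At 1.5-fold, 277 higher and 325 lower became 1811 and 72 with spike-in scaling, 97 and 113 with normexp, 69 and 109 without background subtraction, 138 and 162 with only good spots, 144 and 202 at 2 times the threshold, and 1701 and 1797 with no filter. The causes were not tested. Signal over background limits SOD3, GPX3 and GCLC, which were not detectable on both arrays.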
